A study of Mus musculus with 6 samples.

Results

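Zic1, Zic2, Zic4, Zic5, Otx1 and Otx2 are transcription factor genes that pattern the septum, the dorsal and ventral midline and the diencephalon, regions that border the medial ganglionic eminence (MGE). They were taken by symbol, 6 of 17794 genes in the deposited table, and all 6 passed the filter on low counts. Expression was measured by RNA-seq in MGEs of E13.5 mouse embryos, with 3 libraries from control pools and 3 from double-mutant (dmut) pools, at 3 embryos a pool. Control embryos were wild type at both Rac genes (Rac1+/+ and Rac3+/+), and dmut embryos were Rac1fl/fl and Rac3-/-. Both groups carried the Nkx2.1Tg(Cre) transgene and 1 copy of the R26R-YFP reporter. Cre under Nkx2-1 acts in the ventral lineage, so Rac1 loss applies to that lineage and Rac3 loss to every cell of the embryo. The labels describe dissected tissue and no cell sorting, so each library can hold cells from along the dissection border. The labels number the libraries as biological replicates and do not say whether the pools of different libraries came from different litters.

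The Zic proteins are zinc finger factors related to the Gli family, active in the neural plate border, roof plate, septum and meninges, and in the mouse forebrain they mark progenitors of the septum and the midline. The genes lie in head-to-head pairs, Zic1 with Zic4 and Zic2 with Zic5, and paired genes are often expressed together. Otx1 and Otx2 are homeodomain factors of the bicoid class. Otx2 specifies the anterior neural plate and later marks the diencephalon, midbrain, choroid plexus and ventral telencephalic midline, while Otx1 is expressed in dorsal telencephalic progenitors and, later, in deep-layer cortical neurons.

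The start regions of these genes are shown because the paired genes lie so close together and the library-to-library pattern is shared by members on different chromosomes. Windows of 250 bases before a RefSeq gene start (build GRCm38.p6) were matched for 4 of the 6 genes, Zic1, Zic4, Zic5 and Otx2, and not for Zic2 or Otx1. Otx2 had several annotated starts, and the window before position 48665109 is the one printed, since it holds more motif matches than its other windows. Windows are given 5′ to 3′ on the strand of the gene, with capitals for exact matches on either strand to the bicoid-class Otx motif GGATTA, the Zic motif CAGCAGG, the Nkx2-1 motif CAAGTG, the promoter element CCAAT, the Sp1-type element GGGCGG or the homeodomain core TAATTA. No 2 of these motifs overlapped in the printed windows. The Zic1 window is chr9:91365769-91366018 on the minus strand, and the Zic4 window is chr9:91368722-91368971 on the plus strand. The Zic5 window is chr14:122465659-122465908 and the Otx2 window is chr14:48665110-48665359, both on the minus strand.
Zic1: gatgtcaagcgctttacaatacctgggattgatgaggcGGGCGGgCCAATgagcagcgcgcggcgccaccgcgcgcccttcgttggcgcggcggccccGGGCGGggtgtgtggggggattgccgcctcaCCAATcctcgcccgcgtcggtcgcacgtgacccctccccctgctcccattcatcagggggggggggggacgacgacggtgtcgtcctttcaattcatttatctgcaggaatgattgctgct
Zic4: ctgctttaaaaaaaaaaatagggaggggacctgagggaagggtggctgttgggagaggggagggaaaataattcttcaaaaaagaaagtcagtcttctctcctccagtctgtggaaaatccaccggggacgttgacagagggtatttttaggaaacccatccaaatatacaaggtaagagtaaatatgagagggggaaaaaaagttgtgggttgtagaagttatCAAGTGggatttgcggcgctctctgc
Zic5: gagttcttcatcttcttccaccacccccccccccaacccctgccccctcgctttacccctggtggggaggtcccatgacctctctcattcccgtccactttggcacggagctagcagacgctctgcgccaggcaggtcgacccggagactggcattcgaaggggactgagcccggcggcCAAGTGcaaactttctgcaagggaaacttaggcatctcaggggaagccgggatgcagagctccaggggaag
Otx2: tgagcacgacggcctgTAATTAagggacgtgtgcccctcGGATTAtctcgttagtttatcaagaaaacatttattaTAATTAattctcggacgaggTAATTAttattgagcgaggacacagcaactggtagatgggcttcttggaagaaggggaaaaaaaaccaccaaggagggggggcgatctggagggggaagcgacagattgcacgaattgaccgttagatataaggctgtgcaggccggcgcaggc
The Zic1 window was rich in G and C (66.0%, with 27 CpG pairs) and held 2 matches each of CCAAT and GGGCGG. The Zic5 window was at 62.4% with 11 CpG pairs, the Otx2 window at 48.4% with 14, and the Zic4 window at 44.4% with 4, against medians of 52.4% and 6 over 32851 RefSeq windows. The windows of Zic4 and Zic5 each held 1 CAAGTG match, a motif found in 11.6% of all windows. Among the printed windows, only that of Otx2 held GGATTA (6.25% of all windows) or TAATTA (4.84%). Because that window was picked for its matches, these shares are not a fair background for it. Of the other Otx2 windows, the one before position 48667644 held 1 TAATTA match, and the rest held neither motif. None of the 4 printed windows held CAGCAGG, which occurs in 8.44% of windows, while CCAAT and GGGCGG occur in 33.8% and 32.7%. A match describes these letters only.

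Libraries held 26766556 to 34612095 total gene reads. In this table no gene is listed with 1 to 9 reads, so a listed 0 stands for at most 9 reads. As a check of genotype, Rac3 had 728, 647 and 532 reads in control against 16, 0 and 0 listed reads in dmut (edgeR adjusted p = 0.0413). Rac1, floxed and recombined only where Cre is expressed, was at 272 ± 2.77 CPM in control against 248 ± 26.0 CPM in dmut (SD, n = 3 each, edgeR adjusted p = 0.525). CPM are total gene reads scaled to a fixed library total and by TMM factors, which balance most genes between libraries. The MGE markers Nkx2-1, Lhx6 and Lhx8 were high in every library, with Nkx2-1 at 252 to 307 CPM, Lhx6 at 285 to 421 CPM and Lhx8 at 116 to 153 CPM. Within a group every pair of libraries differed by more than sampling noise (chi-square over its degrees of freedom, 26.6 to 150). By the dates in their titles, control replicate 1 (23 March) stands alone, the libraries of 29 March are control replicate 2 with dmut replicates 1 and 2, and both replicate 3 libraries are of 4 May.

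The levels of the 4 Zic genes differed several-fold between libraries of the same genotype. Replicate 2 of each group was the highest library of its group for all 4, and dmut replicates 1 and 3 lay below every control library. Otx1 and Otx2 varied much less, and neither followed the Zic pattern closely. No member passed the test between the genotypes.

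Zic1, the most abundant member per length, lies on chromosome 9 at 91358058 to 91365810 (GRCm38, minus strand). It was at 91.0, 222.5 and 133 CPM in control replicates 1, 2 and 3, and at 61.1, 236 and 64.8 CPM in dmut replicates 1, 2 and 3. The groups overlapped, because dmut replicate 2 was the highest of all 6 libraries while the other two dmut libraries were the lowest. Zic4, its head-to-head partner, active with it in the developing cerebellum and dorsal midline, spans 91362413 to 91389348 on the plus strand and overlaps Zic1 over 3398 bp. It was at 17.9, 102 and 37.6 CPM in control and at 13.4, 102 and 12.0 CPM in dmut. Its library order matched that of Zic1 except that dmut replicates 1 and 3 changed places. The log2 fold change of dmut over control was -0.31 ± 0.56 for Zic1 (SE, edgeR quasi-likelihood adjusted p = 0.810, 95% interval -1.62 to 1.01). For Zic4 it was -0.31 ± 0.92 (adjusted p = 0.891, interval -2.47 to 1.85).

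The pair on chromosome 14 showed a wider span. Zic2, whose loss in the mouse disturbs forebrain midline formation, lies at 122475435 to 122479852 on the plus strand, 9757 bp from Zic5, a neural crest and neural tube factor in the mouse, at 122456795 to 122465677 on the minus strand. Zic2 was at 5.04, 35.3 and 16.4 CPM in control replicates 1, 2 and 3 and at 0.907, 36.9 and 4.81 CPM in dmut. The highest library had 40.7 times the lowest among dmut libraries and 6.996 times among control libraries. Zic5 was at 1.81, 19.6 and 9.82 CPM in control and at 0.399, 24.9 and 0.992 CPM in dmut, resting on 11 and 26 total gene reads in dmut replicates 1 and 3 and 680 in dmut replicate 2. Its ratio of highest to lowest was 62.5 in dmut and 10.8 in control, the widest of the 6 genes. The groups overlapped for both genes, with the dmut replicate 2 level above all 3 control libraries. The log2 fold change was -0.41 ± 1.14 for Zic2 (edgeR adjusted p = 0.880, interval -3.08 to 2.26) and -0.25 ± 1.36 for Zic5 (adjusted p = 0.944, interval -3.42 to 2.93).

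Otx1 (chromosome 11, 21994764 to 22002897, minus strand) was at 7.73, 4.41 and 5.95 CPM in control and at 2.86, 5.17 and 3.05 CPM in dmut. Its control high was replicate 1, the library in which every Zic gene was lowest among controls. dmut replicates 1 and 3 were again below every control library, and dmut replicate 2 sat inside the control range. Its log2 fold change was -0.71 ± 0.31 (edgeR adjusted p = 0.248, interval -1.43 to 0.02). Otx2 (chromosome 14, 48657679 to 48667644, minus strand) was at 33.7, 50.1 and 28.2 CPM in control and at 40.6, 40.6 and 23.1 CPM in dmut. dmut replicates 1 and 2 were level with each other, both inside the control range, and dmut replicate 3 was lowest of all. Its log2 fold change was -0.10 ± 0.28 (edgeR adjusted p = 0.879, interval -0.75 to 0.55).

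**Figure D1:**
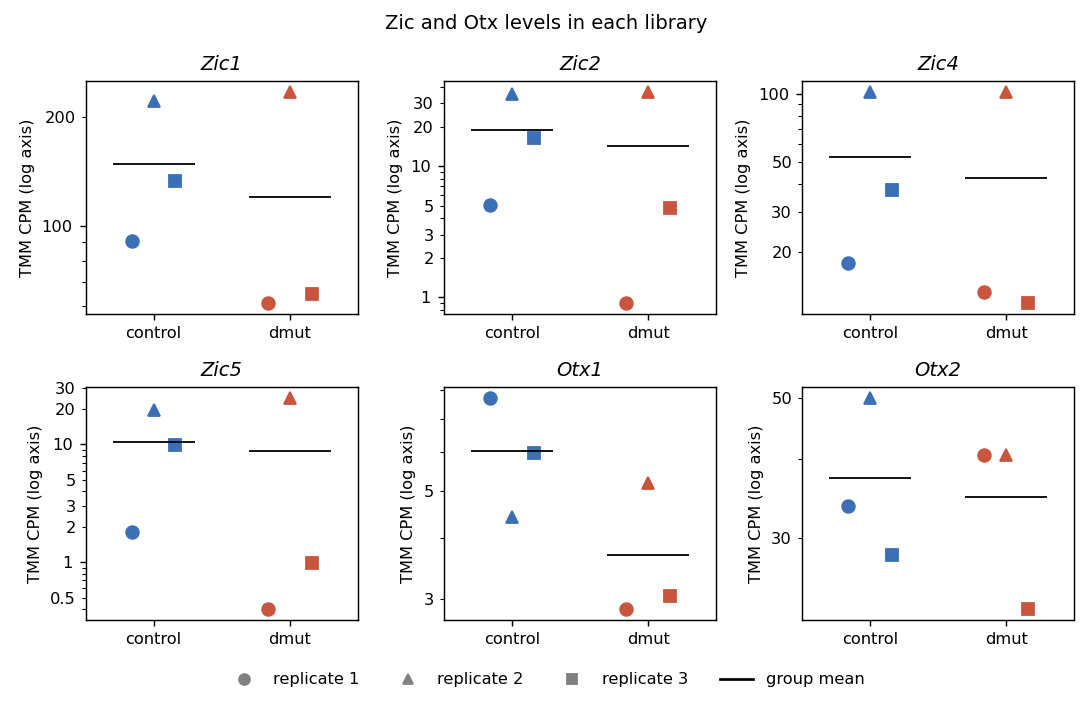
Level of each gene in TMM CPM (log axis) in the 3 control (blue) and 3 dmut (red) libraries, with symbols for the replicate number and a line at the group mean (n = 3). In the 4 Zic panels both triangles (replicate 2) stand at the top, near 222.5 and 236 CPM for Zic1, and the other dmut libraries lie below all control libraries.

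Over the 6 members, 0 were called in either direction by edgeR at an adjusted p of 0.05, where 0.482% of 15960 tested genes were called (0.163% higher and 0.32% lower in dmut). None had an unadjusted p under 0.05, against 3392 of all tested genes (21.3%). DESeq2, which called 10.2% of its tested genes, called 0 members, as did limma-voom. Control and dmut libraries overlapped in every member, so 0 of 6 had separate groups, as 28.5% of tested genes did. dmut replicates 1 and 3 were both below every control library in 5 of 6 members, all but Otx2, and in 23.5% of tested genes. Replicate 2 was the highest library of both groups in 5 of 6 members, all but Otx1, and in 13.3% of tested genes. For Otx2 that rank in dmut rests on a level equal to 3 digits with that of replicate 1. Both of these library patterns were taken from the members' own values, so the member counts for them are a description and not a test. The median log2 fold change of the 6 members was -0.31, against -0.02 over all tested genes.

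The fold changes of the Zic genes depended on dmut replicate 2. Without that library, which left 3.54% of 16512 genes called, the log2 fold change was -1.24 for Zic1 (edgeR adjusted p = 0.105) and -2.05 for Zic4 (adjusted p = 0.145). It was -2.73 for Zic2 (adjusted p = 0.157) and -3.91 for Zic5 (adjusted p = 0.098) in the same fit. Otx1 was at -1.03 (adjusted p = 0.098) and Otx2 at -0.23 (adjusted p = 0.715). There 5 of 6 members had an unadjusted p under 0.05, as did 25.1% of all genes in that fit, and 0 were called. Without control replicate 2 the sign turned for 5 genes, to 0.10 for Zic1, 0.41 for Zic2, 0.61 for Zic4, 0.60 for Zic5 and 0.17 for Otx2, while Otx1 was at -0.89. With both libraries left out, the 4 Zic values were -0.83, -1.91, -1.13 and -3.06 for Zic1, Zic2, Zic4 and Zic5, Otx1 was at -1.21 and Otx2 at 0.04.

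The choice of test also moved the Zic values. With limma-voom the log2 fold change was -0.51 for Zic1, -0.69 for Zic4, -1.39 for Zic2 and -1.68 for Zic5. No member passed in that fit either. The measures differ: edgeR compares group mean levels (10.4 CPM in control and 8.78 CPM in dmut for Zic5), while limma-voom compares means of log2 levels. How far this accounts for the difference was not tested. Within the libraries titled 29 March, dmut replicate 1 and 2 averaged against control replicate 2, the difference in log2 CPM (prior count 2) was -0.89 for Zic1, -2.56 for Zic2, -1.46 for Zic4, -2.53 for Zic5, -0.19 for Otx1 and -0.30 for Otx2. Between the replicate 3 libraries of 4 May it was -1.04, -1.76, -1.65, -3.23, -0.95 and -0.28, in the same order. These are values with no test of their own, and control replicate 1 alone carries the date 23 March. The 29 March averages are of log2 levels, a different measure from the edgeR fold change. With the title date as a block over all 6 libraries, the log2 fold change was -0.78 for Zic1, -1.26 for Zic2, -1.17 for Zic4 and -1.70 for Zic5 (edgeR adjusted p = 0.604, 0.710, 0.596 and 0.693). In the same fit Otx1 was at -0.49 and Otx2 at -0.29 (adjusted p = 0.625 and 0.401), and 0 genes were called over the whole table, where 12.7% had an unadjusted p under 0.05.

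**Figure D2:**
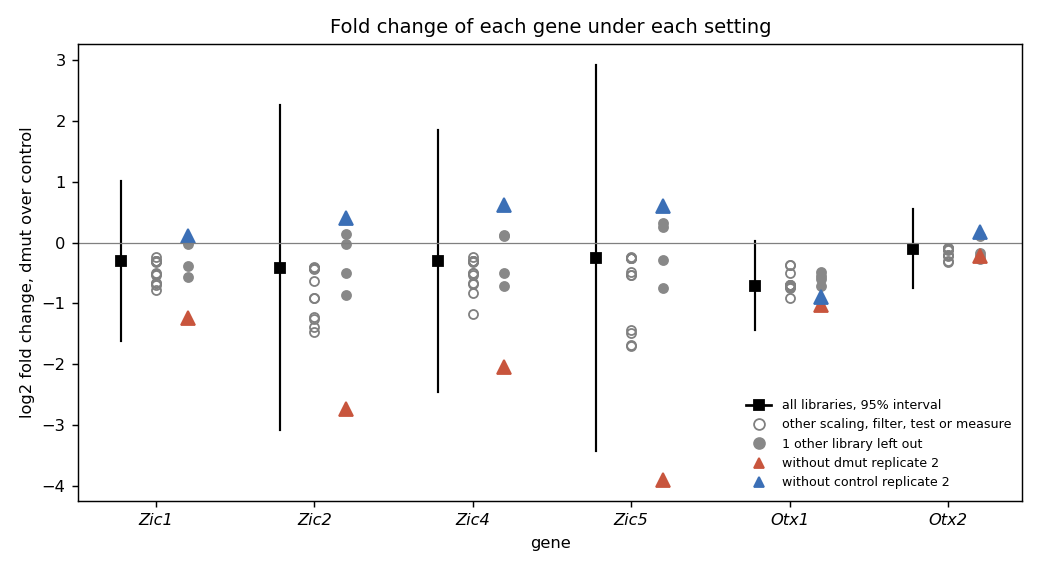
Log2 fold change of dmut over control for each gene. Squares give the fit over all 6 libraries with its 95% interval, open circles other scalings, filters, tests and measures, filled circles fits with 1 other library left out, red triangles the fit without dmut replicate 2 and blue triangles the fit without control replicate 2. For the 4 Zic genes the triangles lie far apart (-3.91 and 0.60 for Zic5), while those of Otx2 stay near 0.

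Spread within a genotype was set against that of genes of like level. The within-group SD of log2 CPM was 0.902 for Zic1, 2.11 for Zic2, 1.51 for Zic4 and 2.48 for Zic5, where the median over all tested genes was 0.213. Among the genes within 0.5 log2 units of mean level, Zic1 ranked 4 of 1652 for spread, Zic2 ranked 2 of 1562, Zic4 ranked 4 of 2550 and Zic5 ranked 15 of 1193. Otx2, with an SD of 0.447, was above 97.97% of genes of its level, and Otx1, with 0.431, above 78.1%. The MGE factors Nkx2-1 (0.123) and Lhx8 (0.191) were above 39.9% and 75.9% of genes of their levels. In bulk tissue, fewer cells of a type and less RNA per cell cannot be told apart, so these values do not say which of them varied between pools.

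**Figure D3:**
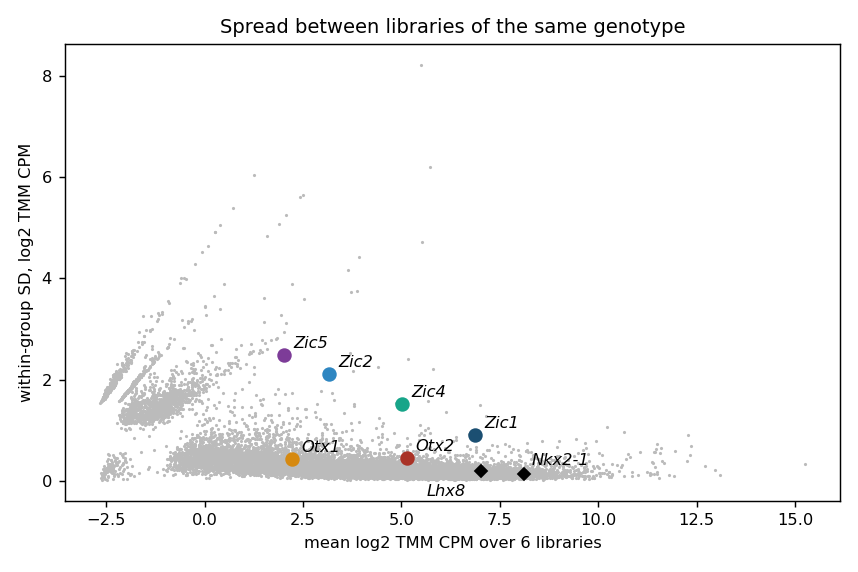
Within-group SD of log2 TMM CPM (2 genotypes pooled) against mean log2 TMM CPM over 6 libraries, for every tested gene (grey). The 4 Zic genes lie above nearly all genes of their level, at SDs from 0.902 (Zic1) to 2.48 (Zic5), and Nkx2-1 (0.123) and Lhx8 (black diamonds) lie in the body of the cloud.

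The 3 deposited measures gave nearly the same picture. Unique gene reads, which leave out reads that match elsewhere, made up 61.0% to 72.5% of total gene reads for Zic1 and 73.2% to 81.8% for Zic4, the overlapping pair. For Zic5 they made up 91.7% to 100% and for Zic2, Otx1 and Otx2 at least 98.7%. Whether reads were assigned by strand is not given in the sources used here, so reads in the 3398 bp shared by Zic1 and Zic4 cannot be assigned to either gene with certainty. Zic1 had 2408, 5717 and 2736 unique reads in control and 1219, 4486 and 1104 in dmut, and Zic4 had 523, 3042 and 925 in control and 296, 2275 and 239 in dmut. In unique reads as in total reads, replicate 2 was the highest library of each group for both genes, and dmut replicates 1 and 3 lay below every control library. With unique reads in the same edgeR fit, the log2 fold change was -0.24 for Zic1 and Zic4, -0.39 for Zic2, -0.23 for Zic5, -0.69 for Otx1 and -0.09 for Otx2, with 0 members called.

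RPKM, as deposited and without TMM factors, is the per-length measure, but its read basis differed between genes and libraries. The annotated exon length was 97.4% to 98.98% of the length that total gene reads over RPKM imply for Zic1, 58.8% to 73.4% for Zic4, 81.6% to 99.6% for Zic5 and 109% to 119% for Otx2. Levels of different genes are therefore compared only roughly. Zic1 was at 16.9, 41.8 and 24.2 RPKM in control and at 9.65, 37.1 and 11.04 RPKM in dmut. Otx2 was at 9.44, 14.7 and 7.66 RPKM in control and at 10.04, 10.5 and 6.35 RPKM in dmut. Zic2 was at 1.87, 12.9 and 5.86 RPKM in control and at 0.285, 11.5 and 1.54 RPKM in dmut. In RPKM the control replicate 2 level was above that of dmut replicate 2 for Zic1, Zic2 and Zic4 and below it for Zic5. Zic4 ranged from 1.29 to 7.38 RPKM in control and from 0.693 to 6.58 RPKM in dmut, Zic5 from 0.394 to 4.19 and from 0.0605 to 4.57, and Otx1 from 0.787 to 1.39 and from 0.479 to 0.800. The order of group mean RPKM was Zic1, Otx2, Zic2, Zic4, Zic5 and Otx1 in both groups, at 27.6 ± 12.8, 10.6 ± 3.66, 6.88 ± 5.58, 3.66 ± 3.26, 2.18 ± 1.91 and 1.09 ± 0.304 RPKM in control (SD, n = 3). In dmut the means were 19.3 ± 15.5, 8.95 ± 2.26, 4.43 ± 6.13, 2.68 ± 3.38, 1.61 ± 2.56 and 0.609 ± 0.169 RPKM (SD, n = 3). Of the neighbours in that order, only Zic1 and Otx2 had control libraries that did not overlap, and no neighbours had separate dmut libraries. In dmut replicate 1, Otx2 stood above Zic1.

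**Figure D4:**
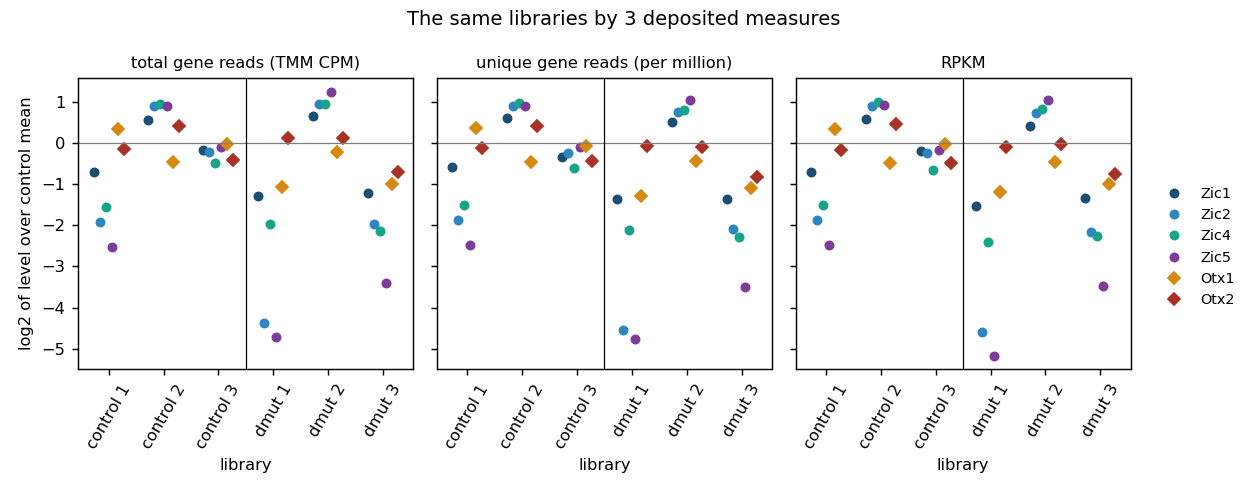
Level of each gene in each library relative to its control mean (log2), by total gene reads as TMM CPM, unique gene reads scaled by library total, and RPKM. In all 3 panels the Zic genes (circles) are high in replicate 2 of both groups and low in dmut replicates 1 and 3, and Otx2 keeps a narrow range.

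Of 14 listed relatives of Zic and Otx, 8 were in the table and 6 were tested, and 0 were called. Gli1, a target and effector of Sonic hedgehog signalling, was at 12.3 ± 2.91 CPM in control against 8.14 ± 0.866 CPM in dmut (SD, n = 3, edgeR adjusted p = 0.157). Dmbx1, a midbrain and diencephalic homeobox gene named after its values were seen, was at 11.3 CPM in control replicate 3, at 0.411 CPM in control replicate 1 and listed at 0 in the other 4 libraries.

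Genes of the neighbouring regions were read from lists of markers. Of 20 septum and rostral midline genes, 18 were tested and 0 were called, 8 had a positive and 10 a negative fold change, and the median log2 fold change was -0.13. In 12 of the 18, replicate 2 was the highest library of both groups, as for the Zic genes. dmut replicates 1 and 3 were below every control library in 4. The summed level of the list was 705, 875 and 672 CPM in control and 660, 879 and 727 CPM in dmut. 4 members of the list were listed at 0 in control replicate 1, 1 in control replicate 2, 3 in control replicate 3, and 2, 2 and 3 in dmut replicates 1, 2 and 3. Those sharing the peak included genes of Fgf signalling at the rostral midline, picked here after their values were seen. Fgf17, a ligand made at the rostral patterning centre, was at 1.10, 10.1 and 0.447 CPM in control and 1.49, 14.6 and 0.534 CPM in dmut. Fgf15, a ligand of septal and ventral progenitors, was at 14.9, 47.1 and 24.8 CPM in control and 7.83, 59.0 and 11.9 CPM in dmut. Spry1, an inhibitor of Fgf signalling induced by it, was at 8.58, 24.4 and 10.003 CPM in control and 5.98, 23.3 and 6.72 CPM in dmut. All 3 were highest in replicate 2 of both groups. Slit2, an axon guidance ligand, was at 54.5 ± 17.2 CPM in control against 39.3 ± 10.1 CPM in dmut (edgeR adjusted p = 0.379). Whether the Zic levels moved with a share of septal cells was not tested.

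The diencephalon and thalamus list behaved differently. Of its 21 genes, 19 were tested and 0 were called, with a median log2 fold change of -0.64, 3 positive fold changes and 3 genes at an unadjusted p under 0.05. Replicate 2 was the highest of both groups in 3 of the 19, and dmut replicates 1 and 3 were below every control library in 8. Its summed level was 166, 174 and 271 CPM in control and 144, 151 and 141 CPM in dmut, with the peak in control replicate 3. Not every gene of the list shared that peak. Foxp2 did, at 45.2, 48.3 and 109 CPM in control and 37.3, 40.3 and 42.6 CPM in dmut. Gbx2, at 17.3, 16.04 and 17.2 CPM in control, and Tcf7l2, at 25.5, 21.01 and 21.3 CPM, were highest in control replicate 1. Foxp2, Gbx2 and Tcf7l2 were picked after their values were seen. The list held 1, 2 and 0 genes listed at 0 in control and 5, 4 and 4 in dmut. Tal1 was at 15.6, 12.6 and 24.6 CPM in control and 9.10, 6.53 and 5.07 CPM in dmut (edgeR adjusted p = 0.083). Which cells of the unsorted tissue gave the Tal1 reads was not tested. Irx2, a factor of the caudal diencephalon and midbrain, was at 0.439, 0.454 and 8.54 CPM in control, and each dmut library listed it at 0 (adjusted p = 0.112). Olig3, a thalamic progenitor factor picked after its values were seen, was at 4.91 CPM in control replicate 3 and listed at 0 in the other 5 libraries. None of Zic1, Zic2, Zic4 and Zic5 had its highest control level in that library, and Otx1 and Otx2 did not either.

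**Figure D5:**
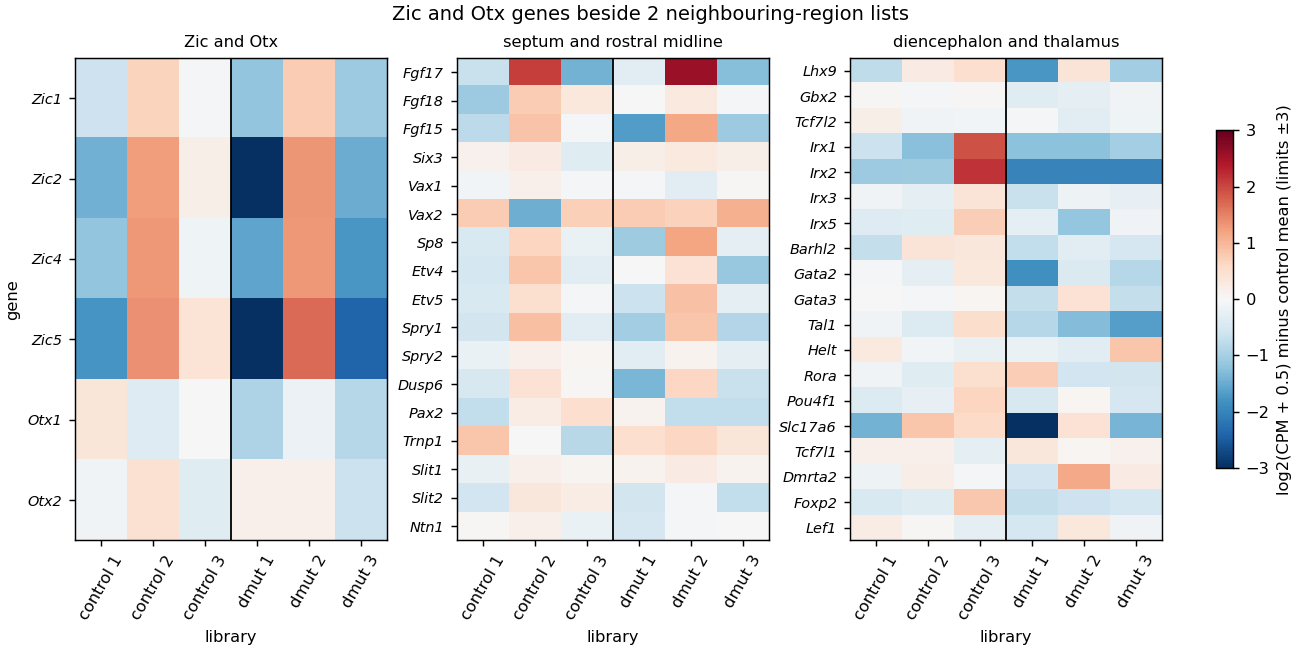
Heat map of log2(CPM + 0.5) minus the control mean in each library, for the Zic and Otx genes, 17 of the 18 tested septum and rostral midline genes and the 19 tested diencephalon and thalamus genes (colour limits at 3 log2 units either side). Fgf17, Fgf15 and Spry1 share the warm replicate 2 columns of the Zic genes, and Irx1 and Irx2 are warm in control replicate 3 alone.

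Lists of other regions differed in how many genes shared the replicate 2 peak, which 13.3% of all tested genes had. Of 22 meninges and head mesenchyme genes, the tissue outside the brain that is known to express Zic genes, 18 were tested, 0 were called and 1 shared the replicate 2 peak. Its median log2 fold change was -1.18, or -0.89 with groups listed at 0 set to 9 reads per library. In 14 of the 18, dmut replicates 1 and 3 were below every control library, and 6 had an unadjusted p under 0.05. Its summed level was 133 to 156 CPM in control and 112 to 125 CPM in dmut, and 1 gene was listed at 0 in each control library and 5 to 7 in the dmut libraries. Twist2, a mesenchymal factor, was at 0.411, 0.695 and 0.595 CPM in control and listed at 0 in dmut (edgeR adjusted p = 0.093), and Col1a2, a collagen of fibroblasts, was at 14.3 ± 3.19 CPM in control against 8.86 ± 0.552 CPM in dmut (adjusted p = 0.098). Other lists also held genes with dmut replicates 1 and 3 below every control library. They were 10 of 19 hem, 9 of 16 cortical excitatory and 6 of 11 preoptic genes, but 3 of 12 choroid plexus and 1 of 15 MGE identity genes. Over all 10 lists there were 59 of 137, against 23.5% of all tested genes. The part of meningeal RNA in the low Zic levels of dmut replicates 1 and 3 was not tested.

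Of 24 genes of the cortical hem and Cajal-Retzius cells, 19 were tested and 0 were called, with a median log2 fold change of -0.49, and 8 shared the replicate 2 peak. The summed level was 216, 359 and 464 CPM in control and 194, 405 and 229 CPM in dmut, and 3, 3 and 0 genes were listed at 0 in control and 8, 3 and 6 in dmut. Ebf3, a factor of Cajal-Retzius cells, was at 4.39, 7.38 and 107 CPM in control and at 2.79, 5.72 and 3.70 CPM in dmut (edgeR adjusted p = 0.173), and Bmp6 was at 1.04 ± 0.190 CPM in control against 2.04 ± 0.354 CPM in dmut (adjusted p = 0.188). Reln, the secreted glycoprotein of Cajal-Retzius cells, picked after its values were seen, was at 92.1, 176 and 119 CPM in control and 67.0, 178 and 125 CPM in dmut, and it was highest in replicate 2 of both groups. The preoptic and hypothalamic list had 11 of 17 genes tested, 0 called, a median of -1.02 and 5 with the replicate 2 peak, at a summed 82.2 to 110 CPM in control and 63.4 to 83.6 CPM in dmut. In that list 0, 1 and 1 genes were listed at 0 in control and 7, 2 and 4 in dmut, so its median rests in part on listed zeros. Nkx2-2, a ventral patterning factor, was at 1.21, 0.802 and 0.595 CPM in control and listed at 0 in dmut (adjusted p = 0.081), and Isl1 was at 65.8 ± 12.9 and 51.7 ± 8.85 CPM (adjusted p = 0.328).

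Among 17 cortical excitatory genes, 16 were tested, 0 were called and 4 shared the peak. Set against the control mean, their median log2 level was -0.11, -0.12 and 0.16 in control against -1.28, 1.29 and -0.96 in dmut. There, as in the Zic genes, dmut replicate 2 stood apart from the other dmut libraries. The summed level was 364 to 382 CPM in control and 397 to 471 CPM in dmut, with 0 to 2 genes listed at 0 in control and 7, 0 and 5 in dmut. Lmo3 was at 59.6 ± 6.71 CPM in control against 75.2 ± 4.35 CPM in dmut (edgeR adjusted p = 0.144). Tbr1, a factor of early cortical neurons picked after its values were seen, was at 8.44, 20.3 and 15.2 CPM in control and at 3.44, 38.5 and 7.10 CPM in dmut, and it was highest in replicate 2 of both groups. Whether dorsal tissue contributed to the Zic and Otx1 levels was not tested.

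The choroid plexus, an Otx2-expressing tissue, was followed through 12 tested genes of 17, with 0 called, a median log2 fold change of -0.01 and 3 genes at an unadjusted p under 0.05. Its summed level was 108 to 117 CPM in control and 119 to 161 CPM in dmut. Ttr, the carrier protein made by choroid plexus epithelium, picked after its values were seen, was at 1.12, 0.882 and 1.40 CPM in control and 0 (listed), 0.990 and 47.6 CPM in dmut. The library high in Ttr, dmut replicate 3, was the one in which Otx2 was lowest. Igfbp2 was at 54.0 ± 1.41 CPM in control against 69.8 ± 5.09 CPM in dmut, and Sulf1 at 19.4 ± 6.73 and 11.6 ± 3.70 CPM (edgeR adjusted p = 0.090 and 0.221). For the eye and retina list 5 of 13 genes were tested, 0 called and none shared the peak. Lhx2, a factor of eye field and cortex, was at 96.3 ± 10.2 CPM in control against 112 ± 0.862 CPM in dmut, and the pigment cell gene Dct at 0.711 ± 0.315 and 0.311 ± 0.282 CPM (adjusted p = 0.278 and 0.645).

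The MGE identity list did not share the Zic pattern. All 15 genes were tested, 0 were called, 11 had a positive fold change, the median was 0.32, and none had replicate 2 as the highest library of both groups. Its summed level was 2447, 2178 and 2134 CPM in control and 2840, 2329 and 2882 CPM in dmut, and no gene was listed at 0. Gad1, a GABA synthesis enzyme, was at 103 ± 16.8 CPM in control against 61.3 ± 11.4 CPM in dmut (edgeR adjusted p = 0.083). Per 100 Nkx2-1 reads, Zic1 had 29.6, 76.6 and 53.0 reads in control and 21.8, 93.2 and 22.8 reads in dmut, so the order of libraries held with Nkx2-1 as the reference. Zic5 had 0.588, 6.75 and 3.90 reads per 100 Nkx2-1 reads in control and 0.142, 9.86 and 0.349 in dmut. Over the 10 lists, 137 genes were tested and 0 were called by edgeR. In the same fit 29 of them had an unadjusted p under 0.05, as did 21.3% of all tested genes. DESeq2, which called 10.2% of its tested genes, called 16 of these 137. limma-voom, which called 127 genes in all, called 1.

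The genes most like each member over the 6 libraries were taken by Pearson r of log2 CPM among 12070 genes with a mean of at least 50 reads, as a description of these libraries, which share depth and dissection. For Zic1 they were Samd3 (r = 0.998), Dtx3l (0.998) and Bmpr1a (0.997). For Zic2 they were Efcab1 (0.997), Lpgat1 (0.996) and Tle4 (0.994), and for Zic4 Gprasp2 (0.997), Trpc4 (0.993) and Pak3 (0.990). For Zic5 they were Cmtm4 (0.991), Gfra1 (0.990) and Tmem200a (0.989). For Otx1 they were Aff1 (0.985), Pigh (0.980) and Tmem165 (0.977), and for Otx2 Adamts17 (0.985), Lair1 (0.975) and Morc4 (0.971). No gene stood in the lists of 2 members. Genes at r of 0.95 or more numbered 64 for Zic1, 111 for Zic2, 44 for Zic4, 81 for Zic5, 14 for Otx1 and 9 for Otx2. Among the members themselves r was 0.901 to 0.992 for the 6 Zic pairs and 0.047 for Otx1 with Otx2.

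In the authors' deposited table the signed fold change of dmut over control was -1.27 for Zic1, -1.37 for Zic2, -1.21 for Zic4, -1.20 for Zic5, -1.50 for Otx1 and -1.06 for Otx2. The adjusted p-value in the authors' deposited table was 1 for each of these genes, and the table calls 155 genes in all, of which 0 are members.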

How the data were processed

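RNA-seq of 3 control and 3 dmut MGE pools was analysed at gene level. Per the labels' protocols, messenger RNA was isolated from total RNA and an Ion Total RNA-seq kit was used for the libraries, and the submitters' processing notes name GRCm38. The aligner and counter are not stated here, being not given in the sources used. Total gene reads and unique gene reads are deposited counts, with a minimum of 10 reads per the file headers. RPKM was deposited per gene and library by the authors. The authors' quantile-normalised signal values, p-values and fold changes were deposited beside them, and of these only p-values and fold changes were used.

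Library totals were 26766556 to 34612095 reads. edgeR 4.0.16 (R 4.3.3) fitted 15960 genes of the total counts with TMM scaling, filterByExpr and a two-sided quasi-likelihood test, Benjamini-Hochberg adjusted at 0.05, dmut against control, with no covariates. Log levels used a prior count of 2. The fit was tested on simulated data. Alternatives were other scalings and filters, DESeq2 1.42.0, limma 3.58.1 on voom weights or on log2(RPKM + 1) and log2(RPKM + 0.1), unique reads, replicate or date blocks, and each library left out. Leaving out both replicates 2, or dmut replicate 2 with unique reads or RPKM, was chosen after seeing the data. Windows came from a RefSeq table and were searched on both strands for exact matches.

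The members and lists were chosen with earlier results of these data known. The genes named were the 6 members, Rac1 and Rac3, up to 2 of smallest p in each list, and the 3 genes most like each member. Nkx2-1, Lhx6, Lhx8, Dmbx1, Fgf17, Fgf15, Spry1, Irx1, Foxp2, Gbx2, Tcf7l2, Olig3, Reln, Tbr1 and Ttr fall outside this rule. Some genes named by this rule are not reported here. Glis2, which the rule names, was at 46.9 ± 6.73 CPM in control against 40.0 ± 2.27 CPM in dmut (edgeR adjusted p = 0.347).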

Additional observations from a re-analysis of the deposited data

How the results depend on the processing

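No setting that was run called any of the 6 members, and adjusted p-values for Otx1 ranged from 0.0796 to 0.625. Leaving out 1 library moved the log2 fold change of Zic1 from -1.24 to 0.10, of Zic2 from -2.73 to 0.41, of Zic4 from -2.05 to 0.61, of Zic5 from -3.91 to 0.60, of Otx1 from -1.03 to -0.49 and of Otx2 from -0.27 to 0.17. The sign turned without control replicate 2 for all but Otx1, without dmut replicate 1 for Zic1 (0.01), Zic2 (0.14), Zic4 (0.12) and Zic5 (0.32), without dmut replicate 3 for Zic4 (0.12), Zic5 (0.26) and Otx2 (0.11), and with both replicates 2 left out for Otx2 (0.043). The within-date values that moved by more than the replicate spread were -2.56 for Zic2 and -0.19 for Otx1 within 29 March and -3.23 for Zic5 within 4 May. The 29 March values average the log2 levels of dmut replicates 1 and 2, while the edgeR values compare group mean levels. They therefore differ from the edgeR values in measure as well as in libraries, and the part of each was not tested. Library size alone shifted the median gene by -0.20 and the RPKM fits by -0.12 to -0.18. The number of genes called in the whole table was 77, against 780 under library size alone, 1783 with DESeq2, 135 under the filter at a mean of 50 reads, 127 with limma-voom, 22 with RPKM and no filter, 0 with the date block, 2 to 585 with 1 library left out, 4 with both replicates 2 left out, and 10 (RPKM) and 730 (unique reads) without dmut replicate 2. Calls in lists at 0 in the reported fit were 1 preoptic, 1 diencephalic, 3 meningeal, 1 cortical and 1 MGE gene with library size alone. With DESeq2 they were 1 preoptic, 1 hem, 2 diencephalic, 1 choroid plexus, 6 meningeal, 1 cortical and 6 MGE genes, 18 in all, of which 2 were not among the genes tested by edgeR. Without dmut replicate 2 they were 1 meningeal, 1 cortical and 4 MGE genes, and with unique reads as well 1 preoptic, 1 meningeal, 1 cortical and 3 MGE genes. A mean of at least 50 reads gave 1 MGE gene, as did limma-voom. The cause of these differences was not tested. Depth limits Zic5 and Zic2 most, at 11 and 25 total gene reads in dmut replicate 1.

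Same-numbered libraries of the groups deviated together at correlations of 0.110, 0.123 and 0.0152. Differently numbered libraries were at -0.136 to 0.0163. The reported fit was planned without a block, and these values do not settle whether the replicate numbers pair the libraries. The SE for Zic1 was 0.21 with the replicate block and 0.56 without it. With the replicate block, log2 fold changes were -0.51 for Zic1 (edgeR adjusted p = 0.223), -1.22 for Zic2 (0.193), -0.67 for Zic4 (0.272), -1.48 for Zic5 (0.289), -0.72 for Otx1 (0.286) and -0.10 for Otx2 (0.713), and 227 genes were called in all.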
